A study of Arabidopsis thaliana with 8 samples.

Results

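In primary roots of Arabidopsis thaliana, 102 nuclear genes lost nearly all of their transcript between 4 and 7 days when the seedlings grew in the dark. Over the same days with lit shoots they stayed between 0.5 and 4 times their 4-day mean. They were chosen from group means of CPM (a locus's count divided by its library total and multiplied by 1000000). A member had a dark 4-day mean of at least 5 CPM, a dark 7-day mean of at most 12.5% of it, and a lit-shoot 7-day mean between 0.5 and 4 times the lit-shoot 4-day mean. Of the 33602 loci in the table, 14100 nuclear loci passed the floor of 5 CPM, 117 of these (0.83%) fell to 12.5% or less in the dark, and 102 also met the lit-shoot range. All 102 were annotated as protein coding, and 61 carried a gene symbol.

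RNA-seq was done on primary roots of accession Col-0, and the labels give no mutation or transgene. Dark seedlings stood on plates fully covered with foil for 4 or 7 days. Seedlings with lit shoots grew for the same 4 or 7 days in a device of the D-Root type, modified, in which light reached the shoot and was kept from the root, here at 130 µmol for 16 h followed by 8 h without light. Sucrose-free medium, 21 °C and shaded roots were common to the 4 groups. A group held 2 biological replicates, each pooled from about 70 seedlings.

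The secondary wall of a xylem vessel is laid down over microtubules as cellulose made by a dedicated set of synthases, crosslinked by xylan, and hardened by lignin that laccases and peroxidases polymerise. The vessel cell then digests its own contents with proteases and dies, which leaves a tube that conducts water. Growing root cells of other layers deposit a primary wall rich in arabinogalactan proteins, extensins and xyloglucan, and loosen it with expansins and xyloglucan-modifying enzymes.

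Library totals ran from 25326045 to 30555290 counts, and the 2 libraries of each group differed by more than sampling noise. Loci of the organelle genomes took 4.15% to 11.37% of the counts, most in dark roots at 4 days. Of 17 root markers matched by symbol, none was at 0 in all libraries, and their summed level was 1267 to 2271 CPM. Of 18 shoot markers 3 had no count in any library (MUTE, FMA and EPF1), and STM and CLV3 stayed at or under 0.0387 CPM. The summed shoot markers were at 149.0 and 131.3 CPM in dark roots at 4 days, 132.3 and 127.8 at 7 days, 97.8 and 90.9 with lit shoots at 4 days and 96.4 and 105.0 at 7 days, and KAN, KCS10 and AS1 made most of that sum. Of the seed storage albumins and cruciferins, SESA1 was at 0 throughout and CRA1 and CRU3 stayed at or under 0.68 CPM. The root markers were thus found in all groups, and MUTE, FMA, EPF1, STM, CLV3 and SESA1 were at or near 0.

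The summed level of the 102 members was 1831 and 2444 CPM in the 2 dark 4-day libraries and 163 and 153.6 CPM in the 2 dark 7-day libraries. With lit shoots it was 7424 and 7159 CPM at 4 days and 9748 and 7999 CPM at 7 days. The dark 4-day libraries therefore stood between the other groups, and the lit-shoot sums were above both dark groups. The median member kept 7.51% of its dark 4-day mean at dark 7 days, with a range of 0 to 12.5%, and had 0.883 times its lit 4-day mean at lit 7 days, with a range of 0.539 to 3.96. These values chose the members and carry no test. RNA was taken from whole roots, so that fewer cells of a type and less RNA per cell cannot be told apart.

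**Figure D1:**
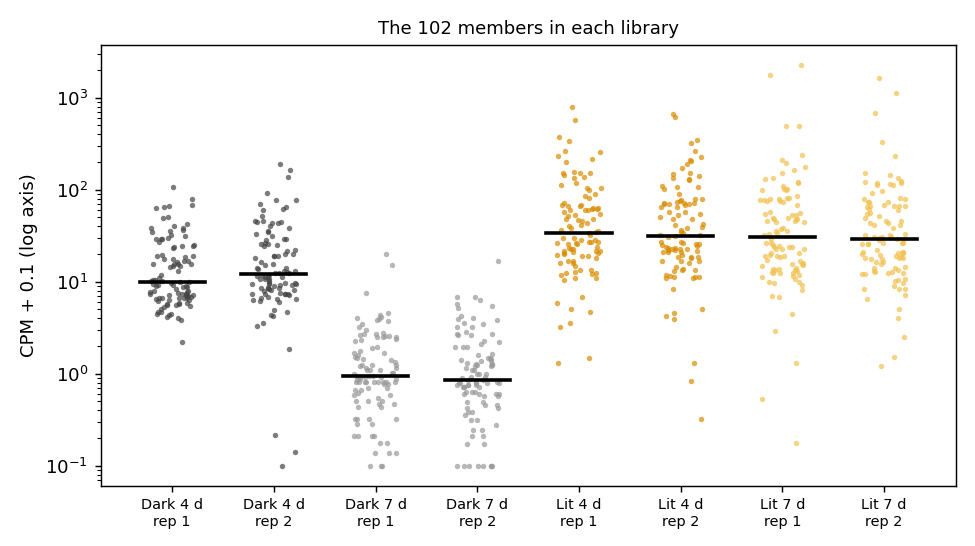
Level of each of the 102 members in each of the 8 libraries, as CPM plus 0.1 on a log axis; each point is a gene and the black line is the median member. The median was 9.9 and 12.1 CPM in the dark 4-day libraries, 0.856 and 0.756 in the dark 7-day libraries, 34.0 and 31.6 in the lit 4-day libraries and 30.4 and 28.7 in the lit 7-day libraries.

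The condition on lit shoots removed few genes. It was met by 13842 of the 14100 loci past the floor (98.2%) and by 102 of the 117 loci that fell to 12.5% or less in the dark (87.2%). Of the 15 loci left out, 13 were below 0.5 times and 2 above 4 times their lit 4-day mean. The fall in the dark is thus what set the members apart from other loci.

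**Figure D2:**
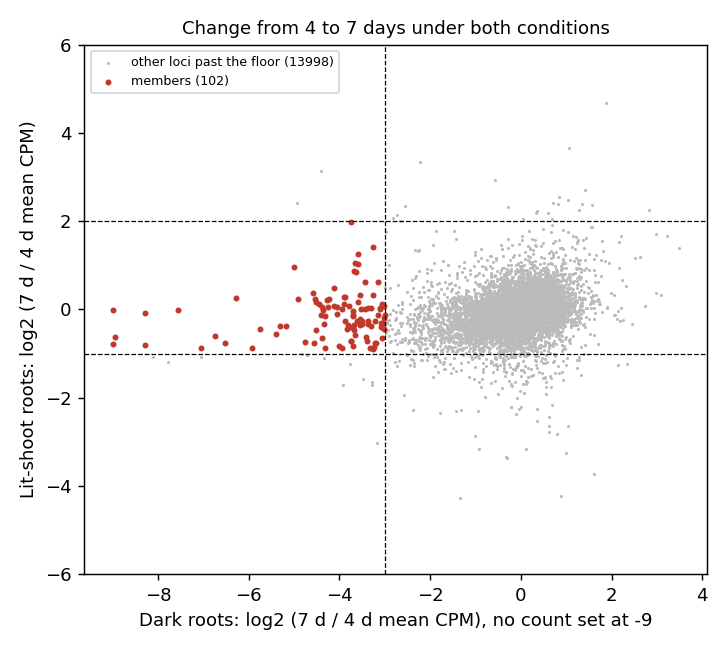
Log2 ratio of the 7-day to the 4-day mean CPM in dark roots (horizontal) and in roots of lit shoots (vertical) for the 14100 loci past the floor, with the 102 members in red; dashed lines are the limits of the rule, and the members with no count at dark 7 days are drawn at -9. The members lie left of the vertical line and between the horizontal lines, which are the limits that chose them.

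At the edge of the rule the values were continuous. Just inside were AT1G70500, a pectin lyase-like protein, with 12.4% of its dark 4-day mean left (7.82 to 0.969 CPM), AT5G60720, a protein of unknown function, with 12.42% (6.90 to 0.857 CPM), and HTA11, a histone H2A variant, with 12.48% (9.98 to 1.25 CPM). Just outside were AT4G12545 with 12.57% (18.8 to 2.36 CPM), PME44, a pectin methylesterase gene, with 12.66% (8.98 to 1.14 CPM), and NLM1, a NIP-type aquaporin gene, with 12.7% (27.8 to 3.53 CPM). No gap separated members from their nearest non-members.

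All 3 cellulose synthase subunits of secondary walls were members. CESA4 (AT5G44030, chromosome 5, 17714390 to 17719723, plus strand, TAIR10.1), a cellulose synthase of secondary walls, had 42.8 and 77.5 CPM in dark roots at 4 days and 3.91 and 3.35 CPM at 7 days. With lit shoots it had 112 and 107 CPM at 4 days and 131 and 96.8 CPM at 7 days. Dark roots at 7 days were lowest by a wide margin, and at 4 days both lit libraries exceeded both dark ones.

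Its partners in the synthase complex had the same order of groups. IRX3, the CESA7 subunit, had 26.7 and 43.4 CPM at 4 days and 2.57 and 2.52 CPM at 7 days in the dark, and 60.4 to 79.2 CPM in the 4 lit-shoot libraries. IRX1, the CESA8 subunit, had 29.1 and 44.8 CPM, then 1.68 and 2.12 CPM in the dark, and 55.6 to 80.4 CPM in the lit-shoot libraries. No library of dark roots at 7 days came near any library of another group for these 3 subunits, which kept 6.03% (CESA4), 7.26% (IRX3) and 5.14% (IRX1) of their dark 4-day means.

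IRX6, a COBRA-like protein of cellulose assembly, had 8.58 and 14.9 CPM at 4 days and 0.708 and 0.324 CPM at 7 days in the dark, and 20.5 to 28.9 CPM with lit shoots. CTL2, a chitinase-like protein needed for cellulose deposition, had 14.8 and 18.8 CPM, then 0.857 and 0.540 CPM, and 36.7 to 55.4 CPM with lit shoots. Both were lowest in dark roots at 7 days and highest with lit shoots. The 14 members of the secondary wall polysaccharide group also held genes of xylan and mannan synthesis (IRX9, IRX15-L, GAUT12, PGSIP1, TBL34 and ATCSLA09), the endoxylanase RXF12, its relative AT4G08160 and the fasciclin-like protein FLA11. Their summed level was 231.2 and 349.6 CPM in the dark at 4 days and 20.03 and 19.0 CPM at 7 days, against 545 to 708.5 CPM in the lit-shoot libraries.

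RXF12 had 38.7 and 45.9 CPM in the dark at 4 days, 4.47 and 3.78 CPM at 7 days, and 51.5 to 82.3 CPM with lit shoots. It kept 9.75% of its dark 4-day mean, more than the synthase subunits.

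Lignin polymerisation was represented by laccases. LAC11 had 36.2 and 45.5 CPM in the dark at 4 days and 1.86 and 2.195 CPM at 7 days, and 66.9 to 91.0 CPM with lit shoots. LAC17 had 29.6 and 42.9 CPM, then 2.31 and 1.87 CPM, and 65.8 to 86.0 CPM with lit shoots, and 97.4% of its length overlaps a locus on the other strand, whose reads cannot be told apart here. IRX12, the laccase LAC4, had 24.8 and 34.5 CPM, then 3.13 and 3.85 CPM, and 47.5 to 72.4 CPM with lit shoots.

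These 3 laccases showed one order of groups, with dark roots at 7 days far below dark roots at 4 days and lit shoots above both. AT5G51890, a class III peroxidase, had 40.6 and 59.5 CPM, then 3.76 and 3.92 CPM in the dark, and with lit shoots 105 and 73.9 CPM at 4 days but 119 and 41.0 CPM at 7 days. Its lit 7-day libraries lay on both sides of the lit 4-day ones. The group of 8 further held PRR1, a pinoresinol reductase, MEE23, a berberine bridge-like enzyme, the peroxidase gene AT2G38390 and the O-methyltransferase gene AT4G35160.

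The genes of tracheary elements and of the cytoskeleton formed a group of 6. XCP2, a papain-type protease of tracheary elements, had 78.5 and 92.8 CPM in the dark at 4 days and 7.45 and 6.69 CPM at 7 days, and 121 to 196 CPM with lit shoots. XCP1, its close relative, had 64.2 and 78.3 CPM, then 3.69 and 3.13 CPM, and 120 to 154 CPM with lit shoots. TED6, a membrane protein of differentiating tracheary elements, had 15.5 and 15.6 CPM, then 1.01 and 1.51 CPM in the dark, and with lit shoots 20.6 and 21.2 CPM at 4 days and 44.6 and 30.9 CPM at 7 days.

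All 3 were lowest in both dark 7-day libraries. MAP65-8, a microtubule-associated protein, had 6.54 and 7.23 CPM in the dark at 4 days and 0.372 and 0.684 CPM at 7 days, and 8.31 to 11.7 CPM with lit shoots. It lies wholly opposite another locus (100% of its length), so its reads are uncertain. TUB1, a beta-tubulin, and TRM30 completed the group.

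The tracheary element-regulating element (TERE) is a short sequence described in promoters of xylem genes, XCP1 among them, so that its match there is not an independent observation. Both strands of the 300 bases before each annotated gene start were searched. The motif was found upstream of 5 of the 102 members (4.9%) and of 118 of 27443 protein-coding genes (0.43%), or 0.469% of those past the floor. All 5 matches lay on the strand of their gene. They are shown with 9 bases on each side so that the genes that hold the element, CESA4 and XCP1 among them, can be compared. Capitals mark the match, and sequences are from RefSeq, TAIR10.1, 5′ to 3′ on the strand of the gene.
CESA4, chr5:17714361-17714389, plus strand: acataataaCTTGAAAGCTActctaagtt
XCP1, chr4:16810398-16810426, plus strand: ttgtctttgCTTCAAAGCCAatcctatga
TUB1, chr1:28453962-28453990, minus strand: tgatcgataCTTGAAAGCTAtcacactta
FLA11, chr5:753842-753870, minus strand: aaactctccCTTCAAAGCAAtgtctctcc
AT1G70500, chr1:26568874-26568902, minus strand: cttcatctaCTTTAAAGCCAagccaataa

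The matches started 20 (CESA4), 75 (XCP1), 161 (TUB1), 204 (FLA11) and 22 (AT1G70500) bases before the gene start. For CESA4 and FLA11 the stretch overlaps a neighbouring locus. The 120 bases before the start of XCP1, which overlap no other locus, show the match in context.
XCP1, chr4:16810362-16810481, plus strand: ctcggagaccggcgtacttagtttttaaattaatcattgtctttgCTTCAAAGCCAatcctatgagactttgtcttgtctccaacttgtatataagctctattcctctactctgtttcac

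For 5 other motifs the shares among members, all genes and loci past the floor were as follows. AC elements of phenylpropanoid promoters, searched as ACCTACC, as ACCAACC and as ACCTAAC, occurred in 10 members (9.8%, against 7.16% of all genes and 6.96% past the floor). The core TGTCTC of auxin response elements occurred in 14 (13.7%, against 13.0% and 12.3%) and the W-box TTGACC in 15 (14.7%, against 14% and 14.6%). The G-box CACGTG occurred in 3 (2.94%, against 7.09% and 8.09%), a lower share than among other genes, and the root hair element RHE in 2 (1.96%, against 0.915% and 0.823%). A match describes letters in this window and not binding.

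The transcription factors that switch on vessel formation were not among the members, from which nothing is read. Of the 37 loci on the list that held them, 15 were past the floor of 5 CPM. Among all loci past the floor, 0.83% met the limit on the fall in the dark. The list also held the α-xylosidase XYL1 and some factors of vascular patterning. Of its 33 tested genes 12 fell and 6 rose in the dark between 4 and 7 days (edgeR adjusted p below 0.05), with a median log2 fold change of -0.30. Over all 20936 genes tested, 18.3% fell and 13.3% rose, with a median of 0.00. VND7, a master switch of vessel fate, had 2.87 and 3.63 CPM at 4 days and 0.298 and 0.468 CPM at 7 days in the dark (log2 fold change -3.13 ± 0.33 SE, edgeR adjusted p = 0.00041). It kept 11.8% but was under the floor of 5 CPM and could not be a member.

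MYB46, which acts below the VND factors, had 2.49 and 3.63 CPM, then 0.782 and 0.144 CPM (-2.77 ± 0.55, edgeR adjusted p = 0.0069). NAC007 (VND4) passed the floor and had 6.84 and 12.6 CPM, then 2.46 and 2.99 CPM, which is 28.0% of its 4-day mean (-1.89 ± 0.32, edgeR adjusted p = 0.0035). Both fell, and both kept more than the 12.5% that bounds the members. XND1, a repressor of vessel differentiation, went the other way, from 2.31 and 1.58 CPM to 14.3 and 8.67 CPM (2.52 ± 0.32, edgeR adjusted p = 0.00098), and had 0.626 to 1.93 CPM with lit shoots. These regulators are no members and were picked from the list after their values were seen.

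**Figure D3:**
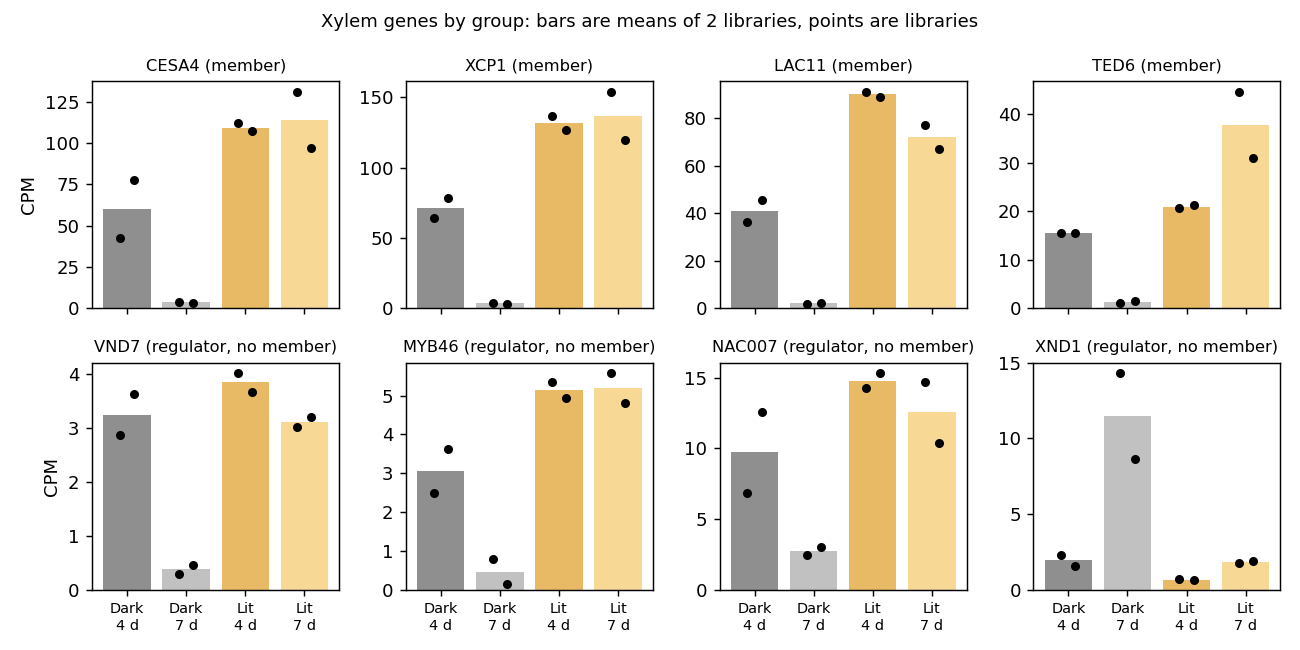
CPM of 4 members (top row) and of 4 xylem regulators that are no members (bottom row) in each group; bars are means of 2 libraries, points are the libraries, and each panel has its own vertical axis from 0. CESA4, XCP1, LAC11 and TED6 are near 0 in dark roots at 7 days, VND7, MYB46 and NAC007 are lowest there, and XND1 is highest there at 14.3 and 8.67 CPM.

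Most of the called genes on the remaining wall and xylem lists fell in the dark between 4 and 7 days. Of all genes tested, 18.3% fell and 13.3% rose, so falls were the more frequent there too. Of 29 tested genes for secondary wall cellulose and xylan, 10 were members. Of the remaining 19, 15 fell and 1 rose in the dark between 4 and 7 days. FRA8, a xylan glycosyltransferase, was the gene that rose, from 151 and 167 CPM to 251 and 224 CPM (0.52 ± 0.14, edgeR adjusted p = 0.024). On the lignin list 3 of 35 tested genes were members, and of the other 32, 14 fell and 0 rose. Of 13 tested genes of xylem microtubules 2 were members, and of the other 11, 6 fell and 0 rose. Of 10 xylem cell death genes 2 were members, and of the other 8, 5 fell and 1 rose. RNS3, a ribonuclease, fell from 22.6 and 22.6 CPM to 3.84 and 4.43 CPM (-2.51 ± 0.13, edgeR adjusted p = 3.4e-05), and BFN1, a nuclease and the 1 gene of that list that rose, went from 12.8 and 11.5 CPM to 30.2 and 24.2 CPM (1.11 ± 0.15, edgeR adjusted p = 0.0014).

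Several root lists held no members, from which nothing is read, since among all loci past the floor 0.83% fell to 12.5% or less and these lists are short. In the dark between 4 and 7 days, 18.3% of all genes tested fell and 13.3% rose. Of 45 tested cell cycle genes 40 fell and 1 rose, with a median log2 fold change of -1.82, and 26 loci of that list were past the floor. Of 44 tested root hair genes 15 fell and 3 rose, and 12 loci were past the floor. Of 29 tested genes of the Casparian strip and suberin 12 fell and 0 rose, and 29 loci were past the floor.

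Genes of cell surface proteins formed the largest group of members, with 15. FLA2, a fasciclin-like arabinogalactan protein, had 50.9 and 51.7 CPM in the dark at 4 days, 2.38 and 2.74 CPM at 7 days, 202 and 205 CPM with lit shoots at 4 days and 109 and 112 CPM at 7 days. Its replicates lay close together in every group. AT3G28550, an extensin-like protein, had 62.9 and 136 CPM, then 4.21 and 5.36 CPM in the dark, and with lit shoots 259 and 213 CPM, then 242 and 61.3 CPM.

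Its dark 4-day and lit 7-day replicates were far apart. The group also held FLA7, AGP14, AGP22 and AGP30 of the arabinogalactan proteins, the germin-like genes GL22 and GLP10, the proline-rich protein genes PRP2 and PRP4, and FUT5, a member of the xyloglucan fucosyltransferase family.

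Wall loosening was represented by 4 members. EXPB1, a beta-expansin, had 5.52 and 9.40 CPM in the dark at 4 days, 0.335 and 0.216 CPM at 7 days, 51.3 and 38.1 CPM with lit shoots at 4 days and 24.0 and 29.6 CPM at 7 days. XTH17, a xyloglucan endotransglucosylase/hydrolase, had 18.4 and 1.74 CPM, then 0 and 0.108 CPM in the dark, and 45.9 to 73.8 CPM with lit shoots. Its dark 4-day replicates disagreed by more than 4 times. With these replicates pooled, its 3 counts at dark 7 days gave a fall of 63.7 to 910 times (95% counting interval). That interval leaves out the difference between the replicates and does not bound the fall.

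Transport and calcium genes made up 9 members. DELTA-TIP, an aquaporin of the vacuolar membrane, had 66.9 and 69.6 CPM in the dark at 4 days, 2.61 and 6.30 CPM at 7 days, 231 and 174 CPM with lit shoots at 4 days and 98.8 and 123 CPM at 7 days. It was the 1 member among 20 tested aquaporins, of which 14 fell and 0 rose in the dark (18.3% and 13.3% of all genes tested). A locus on the other strand overlaps 33.4% of its length. The group further held the calcium pump ACA9, the annexin ANNAT4, the transporter UMAMIT4, the EF-hand genes AT1G29020 and AT1G29025 and the vacuolar calcium-binding-like gene AT3G59370.

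Genes of lipid and lipid transfer numbered 13. AT4G12510, a lipid-transfer-like protein, had 3.74 and 8.49 CPM in the dark at 4 days and no count in either dark 7-day library. With lit shoots it had 48.1 to 68.6 CPM. Set at 3 counts in all, the dark 7-day group gave a 110-fold loss from the pooled dark 4-day counts. That floor covers counting error alone, and the gene did not meet the rule without dark 4-day replicate 2. Of its 50-base words 51.8% also occur in AT4G12520, so reads could be split between the copies. AT4G22666, of the same family, had 6.01 and 14.02 CPM, then 0.112 and 0.216 CPM in the dark, and 48.4 to 110 CPM with lit shoots.

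Both were much higher with lit shoots than in any dark library. AIR1, a lipid-transfer-like gene named for its induction by auxin in roots, had 17.5 and 61.2 CPM, then 2.16 and 5.11 CPM in the dark, and 101 to 164 CPM with lit shoots, and 92.9% of it lies opposite another locus. PLAT2, a PLAT/LH2 domain protein, had 18.8 and 25.2 CPM, then 1.15 and 2.63 CPM, and 177 to 266 CPM with lit shoots.

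Defence, lectin and phosphate genes made up 9 members. LCR68, a defensin, had 32.2 and 31.2 CPM in the dark at 4 days, 2.91 and 2.52 CPM at 7 days, and 324 to 493 CPM with lit shoots. AT1G52070, a mannose-binding lectin, had 9.22 and 14.2 CPM, then 0.410 and 0.180 CPM, and 120 to 193 CPM with lit shoots. DR4, a gene named for its repression by drought, had 15.5 and 65.6 CPM, then 4.06 and 2.02 CPM in the dark, and with lit shoots 374 and 350 CPM at 4 days and 1750 and 1114 CPM at 7 days, the highest ratio of lit 7 to 4 days among the members (3.96).

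LCR68 and AT1G52070 differed between light conditions far beyond their replicates, while DR4 had unequal dark 4-day replicates. AT4G11320, a papain-type protease of unknown site, had 68.4 and 189 CPM, then 20 and 6.69 CPM in the dark, and with lit shoots 794 and 671 CPM, then 2291 and 1645 CPM. Both lit 7-day libraries of DR4 and AT4G11320 were above both lit 4-day ones. AT5G26260, a TRAF-like protein, had the highest dark 4-day mean of all members and had 107 and 164 CPM, then 15.1 and 16.6 CPM in the dark, and 497 to 688 CPM with lit shoots.

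Signalling genes were few. SHY2, the auxin repressor IAA3, which is known for restraining cell division at the root transition zone, had 5.18 and 7.46 CPM in the dark at 4 days, 0.223 and 0.756 CPM at 7 days, and 18.5 to 31.9 CPM with lit shoots. It was the 1 member among 40 tested auxin genes, of which 16 fell and 2 rose in the dark (18.3% and 13.3% of all genes tested). Of the length of SHY2, 41.5% lies opposite another locus. AT3G46400, a leucine-rich repeat kinase, had 6.27 and 8.81 CPM, no count in either dark 7-day library, and 6.85 to 14.8 CPM with lit shoots. Set at 3 counts in all, its dark 7-day group gave a 137-fold loss from the pooled dark 4-day counts. SEOa, a protein of sieve elements, was the 1 phloem member, with 14.4 and 18.16 CPM, then 1.38 and 1.15 CPM in the dark, and 20.9 to 44.4 CPM with lit shoots.

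Compared per kilobase of exon, members differed widely in level. In dark roots at 4 days AT5G26260 stood at 85.7 CPM per kb, AGP14 at 75.5, XCP2 at 62.2, DELTA-TIP at 57.4 and AIR1 at 57.0, while CESA4 stood at 16.0 and IRX3 at 10.3. With lit shoots at 4 days the order led with LCR68 at 469 CPM per kb, AT5G26260 at 373 and DR4 at 326.

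The comparison of lit shoots with dark at 4 days asks how far the members differed at the earlier day sampled. No dark roots were sampled before 4 days, so whether a loss had begun by then cannot be told. The ratio of lit shoots to dark at 4 days did not enter the rule. The means of both 4-day groups did, the dark one through the floor and the fall. Of the 102 members 73 were higher with lit shoots, 2 were lower and 27 were not called (edgeR adjusted p below 0.05, Benjamini-Hochberg over 20936 genes). Of all genes tested, 30.5% were higher and 26.6% lower. The members' median log2 fold change was 1.1 (range -3.93 to 3.68), against 0.06 for all genes.

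The libraries of both groups did not overlap and were higher with lit shoots in 91 members and lower in 2, and they overlapped in 9. Of all genes tested, 52.6% did not overlap and were higher, and 30.0% did not overlap and were lower. The lit mean was above the dark mean in 94 members, at least 2 times in 61, at least 4 times in 28 and at least 8 times in 8. These counts use CPM by library totals, and shares over all genes were not computed for them. Scaling of that kind moved the median gene tested towards lit shoots, from a log2 fold change of 0.065 to 0.264. How far the counts are particular to the members can therefore not be told. All 102 passed the filter on low counts. The dark 4-day floor is on a mean and did not ensure this for every member. PRP2, PRP4 and AT1G09310 had 0, 0.119 and 0.0395 CPM in dark 4-day replicate 2 and passed through libraries of other groups as well.

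With scaling by library totals alone, the median of all genes moved from 0.065 to 0.264 and the higher share of all calls from 53.5% to 66.2%, while the members' median became 1.30 and 86 members were called higher. Without 1 dark 4-day library the members called higher were 53 (without replicate 1) or 72 (without replicate 2), and the members called lower 1 or 7. The summed shoot markers and organelle share given above were also higher in dark roots at 4 days than with lit shoots, and their part in the result was not tested.

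Each of the 6 members of tracheary elements and cytoskeleton had both lit libraries above both dark ones at 4 days. The same held for 52.6% of all genes tested. Their lit means were from 1.34 (TED6) to 8.2 (TUB1) times their dark means. Of the 6 members 2 were called higher, a share close to the 30.5% of all genes tested. Their median log2 fold change was 0.49, against 1.1 for all members. XCP1 differed by 0.69 ± 0.16 (SE, edgeR adjusted p = 0.0066) and was not called without dark 4-day replicate 1 (adjusted p = 0.082). XCP2, which differed by 0.51 ± 0.22 (edgeR adjusted p = 0.079), was called with scaling by library totals (adjusted p = 0.017). TED6 differed by 0.22 ± 0.19 (adjusted p = 0.35) and MAP65-8 by 0.46 ± 0.23 (adjusted p = 0.12, edgeR), and neither was called. TUB1, by contrast, had 15.6 and 21.3 CPM in the dark and 151 and 152 CPM under lit shoots (2.84 ± 0.25, edgeR adjusted p = 9e-05).

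Of the 14 members of secondary wall polysaccharides 11 were called higher (30.5% of all genes tested), with a median of 0.71. IRX3 differed by 0.72 ± 0.23 (edgeR adjusted p = 0.027), while CESA4 (0.66 ± 0.28, adjusted p = 0.078), IRX1 (0.47 ± 0.24, adjusted p = 0.12) and IRX6 (0.70 ± 0.30, adjusted p = 0.08) were not called. The 3 synthase subunits thus lay on both sides of the threshold. IRX3 was not called without dark 4-day replicate 1 (edgeR adjusted p = 0.18), and CESA4 was called without replicate 2 (adjusted p = 0.0048). ATCSLA09, a mannan synthase, had the largest difference of the group, with 7.30 and 9.56 CPM in the dark and 62.0 and 71.4 CPM under lit shoots (2.78 ± 0.15, edgeR adjusted p = 1.4e-05).

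Of the 8 laccase, peroxidase and phenolic members 7 were called higher (30.5% of all genes tested), with a median of 0.91. LAC11 differed by 0.94 ± 0.14, IRX12 by 0.89 ± 0.19 and LAC17 by 0.78 ± 0.21 (edgeR adjusted p = 0.00061, 0.0041 and 0.013), and LAC17 was not called without dark 4-day replicate 1 (adjusted p = 0.11). AT5G51890 (0.64 ± 0.49, adjusted p = 0.3) was not called.

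The surface, transport and defence genes had larger differences. The counts of members called higher stand beside 30.5% of all genes tested. All 9 transport and calcium members were called higher (median 1.57), as were 12 of the 15 cell surface members (median 1.76), 7 of the 9 defence, lectin and phosphate members (median 1.82), 3 of the 4 wall-loosening members (median 2.22) and 8 of the 13 lipid members (median 1.12), of which 1 was lower. The largest differences in favour of lit shoots among members whose libraries did not overlap were those of AT1G52070 (3.68 ± 0.24), PLAT2 (3.39 ± 0.27), AT4G22666 (3.19 ± 0.37), LCR68 (3.19 ± 0.20) and AT4G12510 (3.07 ± 0.39), each with an edgeR adjusted p of at most 0.001. Their lit means were 9.67 to 14.8 times their dark means.

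FLA2 differed by 1.79 ± 0.09 (edgeR adjusted p = 1e-05), EXPB1 by 2.39 ± 0.27 (adjusted p = 0.00022), DELTA-TIP by 1.37 ± 0.30 (adjusted p = 0.0068) and SHY2 by 1.84 ± 0.38 (adjusted p = 0.0044). AT5G26260 differed by 1.92 ± 0.22 (adjusted p = 0.0002). XTH17 (2.38 ± 0.84, edgeR adjusted p = 0.049) and AT4G11320 (2.31 ± 0.64, adjusted p = 0.021) were called, but neither was without lit 4-day replicate 1 (adjusted p = 0.11 and 0.069). In FLA2, EXPB1, DELTA-TIP, SHY2 and AT5G26260 the lit libraries were thus well above the dark ones, while XCP1, XCP2 and TED6 had smaller differences. That difference between roles was not tested.

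**Figure D4:**
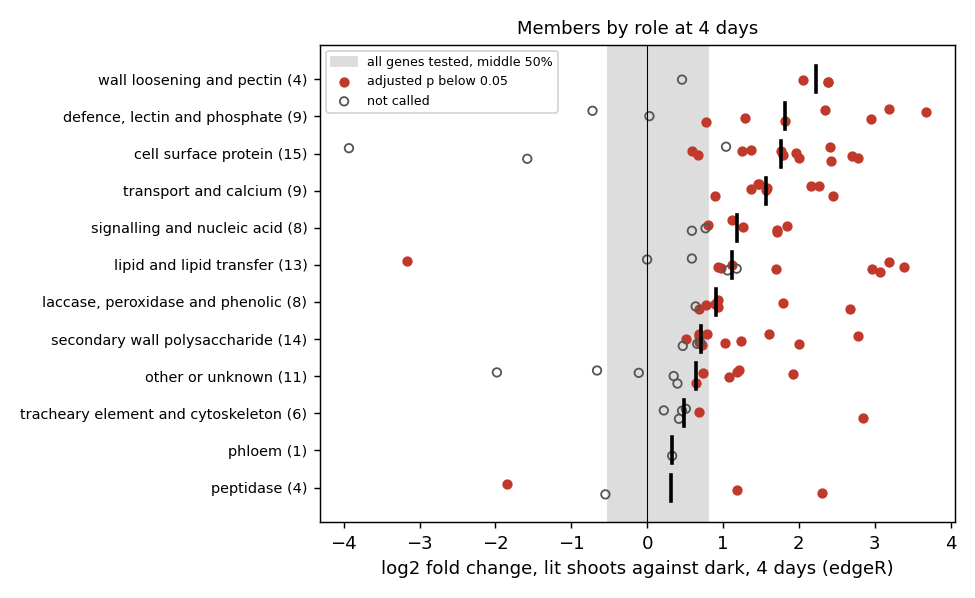
Log2 fold change of lit shoots against dark at 4 days (edgeR) for the 102 members by role, with the number of members in brackets; filled points passed an adjusted p of 0.05, black lines are medians, and the grey band holds the middle 50% of all genes tested. Medians ran from 0.32 for peptidases to 2.22 for wall loosening, and 2 filled points lie below 0.

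Only 2 members were called lower with lit shoots at 4 days. AT5G19110, of the aspartyl protease family, had 49.8 and 25.6 CPM in the dark, and its lit 4-day libraries had 10.8 and 13.2 CPM (-1.85 ± 0.28, edgeR adjusted p = 0.00086). AT1G29660, of the GDSL lipase family, had 7.30 and 4.23 CPM in the dark, and its lit 4-day libraries had 1.21 and 0.221 CPM (-3.17 ± 0.89, edgeR adjusted p = 0.018), and was not called without dark 4-day replicate 1 (adjusted p = 0.064) or without lit 4-day replicate 2 (adjusted p = 0.085). In both genes the libraries of the groups did not overlap. SEOa (0.33 ± 0.17, adjusted p = 0.13) and DMP2, a membrane protein (0.35 ± 0.22, adjusted p = 0.19), were among the members with the smallest differences.

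The 2 dark 4-day libraries did not show the members alike. Replicate 2 was higher than replicate 1 in 82 of the 102 members, with a median log2 ratio of 0.37, while over all genes tested the median was 0. In the other 3 groups the members' median ratio lay between -0.14 and -0.06. In 5 members the dark 4-day replicates differed by more than 4 times.

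PRP2 had 35.04 and 0 CPM in the dark 4-day libraries, PRP4 had 23.0 and 0.119 CPM, and AT1G09310, a gene of unknown function, had 14.8 and 0.0395 CPM. These 3 rest on replicate 1 alone and had low values with lit shoots, at most 1.41 CPM in PRP2, 4.96 CPM in PRP4 and 3.502 CPM in AT1G09310. They were the 3 members not called lower in the dark between 4 and 7 days (edgeR adjusted p = 0.072, 0.051 and 0.077). Of the 102 members 66 met the rule with either dark 4-day library left out, 10 lost it without replicate 1 and 26 lost it without replicate 2. XTH17 was among the 10, and AT5G26260, AT4G11320, AIR1, DR4, IRX12 and FLA11 were among the 26.

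**Figure D5:**
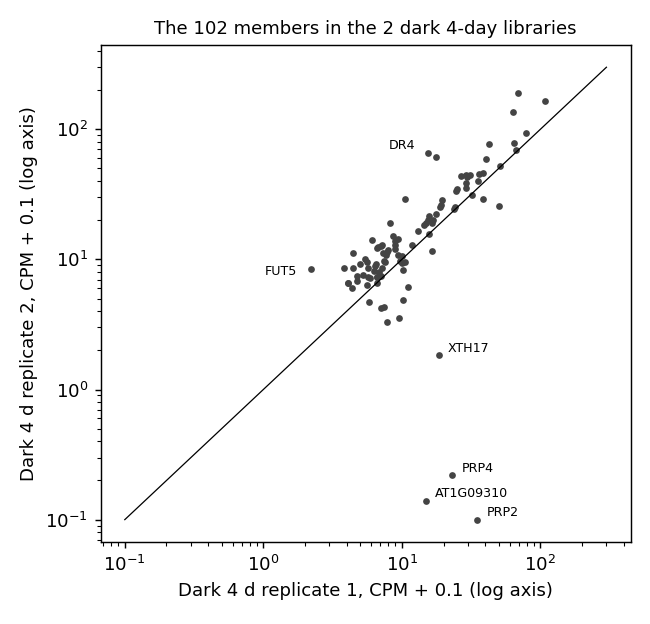
CPM plus 0.1 of the 102 members in dark 4-day replicate 1 (horizontal) and replicate 2 (vertical), on log axes with the line of equality. Of the members 82 lie above the line, and PRP2, PRP4, AT1G09310 and XTH17 lie far below it.

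The counts in the comparisons that the rule used are given as description. Between 4 and 7 days in the dark 99 of the 102 members were called lower (18.3% of all genes), and at 7 days 98 were called higher with lit shoots (36.2% of all genes). A positive light by day interaction was called in 95 (9.03% of all genes) and a negative one in 0 (5.57%). Between 4 and 7 days with lit shoots 2 were called higher (2.13% of all genes) and 5 lower (2.1% of all genes), and 95 were not called. Within that bounded range SEOa (0.84 ± 0.17, edgeR adjusted p = 0.037) and TED6 (0.83 ± 0.19, adjusted p = 0.049) were the members called higher, and FLA2 (-0.90 ± 0.09, adjusted p = 0.0053), AT1G76240, ARP1, AT3G59370 and AT2G04500 those called lower. No member of either direction was called when lit 4-day replicate 1 was left out, by edgeR, with 11 of the 102 members and 2716 of 21366 genes at an unadjusted p below 0.05, while DESeq2 on all libraries called 4 higher and 12 lower.

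All 5 chromosomes held members. Chromosome 1 held 31 of them (30.4%, against 26.0% of the loci past the floor), chromosome 3 held 22 (21.6%, against 19.9%) and chromosome 4 held 13 (12.7%, against 15.3%). Chromosome 2 held 18 of the 102 members and 15% of the loci past the floor, and chromosome 5 also held 18 but 23.7% of those loci, the largest departure of the 5. Only 4 pairs of members lay within 20 kb of each other, among them the neighbouring EF-hand genes AT1G29020 and AT1G29025 (1313 bases apart) and the lectin genes AT1G52050 and AT1G52070 (7908 bases apart).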

How the data were processed

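The authors deposited a table of raw counts, 1 whole number per locus and library. The labels' protocols give ribosomal RNA depletion. Credited to the submitters' processing notes, with no role or order, are Subread, TopHat2, Trim Galore, FastQC and CASAVA 1.8.2, and the build TAIR10. How strand and multiple matches were handled is not given in those notes. Positions, products and sequences came from RefSeq TAIR10.1, to which 32835 loci matched.

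CPM used column totals and is given per library or as group means (n = 2). Tests used edgeR 4.0.16 in R 4.3.3 (filterByExpr with minimum count 10 and total 15, TMM, 1 coefficient per group over all 8 samples, glmQLFit robust, glmQLFTest, 4 residual degrees of freedom) with Benjamini-Hochberg adjustment over 20936 genes. An adjusted p is from this test unless the sentence names another setting or a left-out library, in which case it is from the same test refitted that way. The script was tested on simulated counts. Errors are standard errors, the log2 fold change divided by the square root of F. DESeq2 1.42.0, other scalings and filters, left-out libraries and a replicate block were alternatives. Intervals and floors reflect counting error alone.

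The members, gene lists and tests were chosen with earlier results of these data known, and the roles after the members were seen. Genes were named by rule: the 10 members highest in dark 4-day CPM, the 5 highest and 5 lowest log2 fold changes (with sign) of lit shoots against dark at 4 days among members without overlap, up to 5 members per list, the 3 loci on each side of the 12.5% limit, and members with no count at dark 7 days. Other names were chosen after their values were seen. Lists were matched by symbol (731 of 781), so a few loci carry a listed symbol with another function (FAH1, TED4, CRB and CRC).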

Additional observations from a re-analysis of the deposited data

Results flagged for a closer look

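The change from 4 to 7 days differed between lit shoots and dark in 95 of the 102 members (light by day interaction, edgeR adjusted p below 0.05, positive in all 95), against 9.03% of all genes. The rule fixes this count, since it asked for a fall in the dark and bounded the change with lit shoots. The 7 members not called were AT3G28550 (adjusted p = 0.051), XTH17 (0.059), PS2 (0.084), AT3G54580 (0.13), PRP4 (0.13), PRP2 (0.25) and AT1G09310 (0.25). With 2 libraries a group, no single library could be tested as an outlier.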

How the results depend on the processing

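Of 228 recomputed counts 190 stayed within 1.5 times, and of 576 recomputed log2 fold changes of the 36 named genes at 4 days 515 kept direction and side of the threshold, 33 lost the call, 28 gained it and 0 reversed; 17 genes kept their call throughout. The rule found 286 genes with a looser dark limit (a 4-fold fall), 39 with a stricter one (a 16-fold fall), 212 with a floor of 1 CPM, 54 with 10 CPM, and 86 to 115 without 1 library (76 to 100 of them members). At 4 days, members called higher with lit shoots were 53 to 76 without 1 library, and lower 1 to 7, 7 without a filter and 1 among the 66 members stable to either dark 4-day library, an alternative chosen after seeing the data. Called lower in the dark were 92 to 101, higher with lit shoots at 7 days 97 to 100, with a positive interaction 86 to 96. With lit shoots over time, 0 to 3 were higher and 0 to 7 lower without 1 library; 10 and 28 without a filter, 4 and 12 by DESeq2, 1 higher with library totals and 6 higher with only the 2 groups. Over all genes, ranges without 1 library were 4675 to 6419 higher and 3779 to 6150 lower at 4 days, 2365 to 4023 lower in the dark, 6504 to 7574 higher at 7 days, and 0 to 524 higher and 0 to 587 lower over time with lit shoots, where no filter gave 1368 and 1688 and DESeq2 773 and 1014. The cause was not tested. Replicate numbers did not pair the samples (r between groups of 0.00992 to 0.0872); with a replicate block 68 members were called higher and 2 lower at 4 days. Replicates of each group differed by more than sampling noise (chi-square per degree of freedom 11.8 to 66), so that depth alone does not set the precision.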
